A study of Mus musculus with 12 samples.

Results

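Wnt signaling in the adrenal cortex is held in check by genes that the pathway itself can switch on. The 10 genes described here are *Notum*, *Nkd1*, *Nkd2*, *Apcdd1*, *Axin1*, *Axin2*, *Dact1*, *Dact2*, *Dact3* and *Sp5*, which were chosen by name as negative feedback regulators of Wnt signaling. All 10 were found by symbol among the 39017 genes of the deposited count table, and all 10 passed the filter on low counts that left 14953 genes for testing. RNA was sequenced from whole adrenals of female mice aged 10 to 11 weeks on a mixed sv129 and C57Bl/6 background, with 6 libraries in each of 2 groups. Controls (Ctrl) carried the genotype ASCre/+, and βCat-GOF mice carried the same Cre allele together with Ctnnb1 fl(ex3)/+. The titles of the control samples read Wt_Ctr, and the authors also called the adrenals of this comparison wild type. In both groups Cre came from the aldosterone synthase locus (*Cyp11b2*), which is active in cells of the zona glomerulosa (zG), the outer layer of the cortex. In βCat-GOF mice Cre removes an exon of *Ctnnb1* that holds the residues marking β-catenin for degradation, so the protein accumulates in zG cells and in cells that descend from them. The RNA came from the whole gland, and each value therefore averages zG cells with the zona fasciculata (zF), the medulla, the capsule and vessels. Fewer cells of a type and less RNA per cell cannot be told apart in such samples.

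In canonical Wnt signaling a Wnt ligand binds a Frizzled receptor with an LRP co-receptor, which stops a destruction complex from degrading β-catenin, and β-catenin then enters the nucleus and works with TCF/LEF factors. The regulators act at successive levels. NOTUM is a secreted enzyme that removes the lipid from Wnt ligands, APCDD1 is a membrane glycoprotein that binds Wnt and LRP at the cell surface, the NKD and DACT proteins bind Dishevelled in the cytoplasm, the AXIN proteins are scaffolds of the destruction complex, and SP5 is a zinc-finger repressor in the nucleus. *Axin2*, *Notum* and *Nkd1* are widely used as readouts of β-catenin activity, whereas *Axin1* is expressed broadly.

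The libraries held between 13484675 and 25625494 counts on genes. The labels of 3 pairs of libraries share a stem (1367-1 with 1367-1-2, 1367-5 with 1367-5-2, and 1369-2 with 1369-2ear), but each group held 6 mice according to the description of the experiment, and every library was counted as a separate mouse. Compared over genes, the counts of these pairs gave chi-square values of 42.6 to 46.1 for each degree of freedom, where sampling noise alone would give about 1, and the 27 remaining pairs of libraries of the same group gave 16.6 to 148, so none was a repeat deposit within sampling noise. This does not tell whether 2 libraries came from 1 mouse. The library 1369-2ear was nearer to 1369-2 (42.6) than to the other βCat-GOF libraries (86.3 to 148), whereas each library of the control pairs was nearer to some other control. These values also grow with the number of counts. For 1367-1-2, 1367-5-2 and 1367-5 the nearest control was 1367-10, the control with the fewest counts (14090378), so nearness cannot be told apart from depth there. All labels of controls begin with 1367 and those of 5 of the 6 βCat-GOF libraries with 1369, and what that number stands for cannot be told apart from the genotype. Over all genes tested, the βCat-GOF library 1369-2ear had a median Spearman correlation of 0.977 with the controls and 0.972 with the other βCat-GOF libraries, which made it the βCat-GOF library that lay nearer to the other group. Values without it and 1369-2 are given beside the results that they moved. *Ctnnb1* itself averaged 21620 normalized counts in control libraries and 21400 in βCat-GOF libraries (log2 fold change -0.023, adjusted p = 0.91 by edgeR's quasi-likelihood test), and the removal of an exon cannot be seen in counts summed over a gene.

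Many genes that β-catenin controls carry TCF/LEF sites, so the promoters of the regulators were read for their letters. RefSeq windows on GRCm38.p6, from 250 bases before to 50 bases after a start site, were at hand for 7 of the 10 genes (not *Notum*, *Apcdd1* or *Axin1*). They were searched on both strands for CTTTGAA and CTTTGAT, the core letters that TCF/LEF factors prefer. Only *Sp5* held either, a CTTTGAT that begins 104 bases before its start site, and 8.65% of all 32851 windows held at least 1 of these words (5.14% CTTTGAA and 3.73% CTTTGAT). The 250 bases upstream of *Sp5* (chr2:70474673-70474922, plus strand) are shown with the match in capitals, next to those of *Axin2* (chr11:108920099-108920348, plus strand) and *Nkd1* (chr8:88527383-88527632, plus strand), the 2 most abundant members with a higher mean level in βCat-GOF adrenals for which a window was at hand, in which neither word occurs. The *Nkd1* window lies before the RefSeq start site used in that table, which is inside the span that GENCODE gives the gene, and not before the start of that span.
Sp5: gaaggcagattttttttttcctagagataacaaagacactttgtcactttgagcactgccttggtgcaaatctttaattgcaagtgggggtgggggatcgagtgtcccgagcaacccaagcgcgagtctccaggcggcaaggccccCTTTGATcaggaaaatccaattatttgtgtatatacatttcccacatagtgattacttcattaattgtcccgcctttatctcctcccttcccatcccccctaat
Axin2: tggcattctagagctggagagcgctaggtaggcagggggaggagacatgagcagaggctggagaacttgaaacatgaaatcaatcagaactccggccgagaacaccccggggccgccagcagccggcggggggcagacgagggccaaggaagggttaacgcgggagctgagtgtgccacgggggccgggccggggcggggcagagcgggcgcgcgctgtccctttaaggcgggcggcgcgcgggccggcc
Nkd1: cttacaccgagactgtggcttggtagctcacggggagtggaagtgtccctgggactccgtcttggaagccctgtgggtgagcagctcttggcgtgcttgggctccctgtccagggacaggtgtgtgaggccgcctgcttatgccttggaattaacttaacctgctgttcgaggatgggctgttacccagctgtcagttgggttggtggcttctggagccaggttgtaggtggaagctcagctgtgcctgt
These windows are short, and TCF/LEF sites of such genes can lie far from the start site, so the absence of these letters says nothing about the factors.

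Of the 10 regulators, 4 rose in βCat-GOF adrenals past all the cut-offs, and none fell. Called genes had an adjusted p under 0.05 in edgeR's quasi-likelihood test (Benjamini-Hochberg over all genes tested), a fold above 1.4 and a mean above 100 normalized counts. *Notum*, *Nkd1*, *Apcdd1* and *Dact1* were called, whereas 222 of all 14953 genes, or 1.48%, were called higher and 0.869% lower. At the adjusted p alone the count was again 4 of 10, against 2.16% of all genes. In the same 4 genes every βCat-GOF library lay above every control library, which held for 1.61% of all genes. The median log2 fold change was 0.65 over the 10 regulators and 0.0001 over all genes tested. Of the lower calls, the count was 0 of 10 both by edgeR and by DESeq2, also at an unadjusted p under 0.05. DESeq2 called 5 members higher, the same 4 and *Axin2*, against 2.14% of the 16901 genes to which it gave an adjusted p. *Nkd2*, *Dact2*, *Dact3* and *Sp5* had means under 100 normalized counts over the 12 libraries, so they could not pass all cut-offs whatever their change. They did not pass the test either, with adjusted p of 0.24 to 0.94 (edgeR's quasi-likelihood test).

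**Figure D1:**
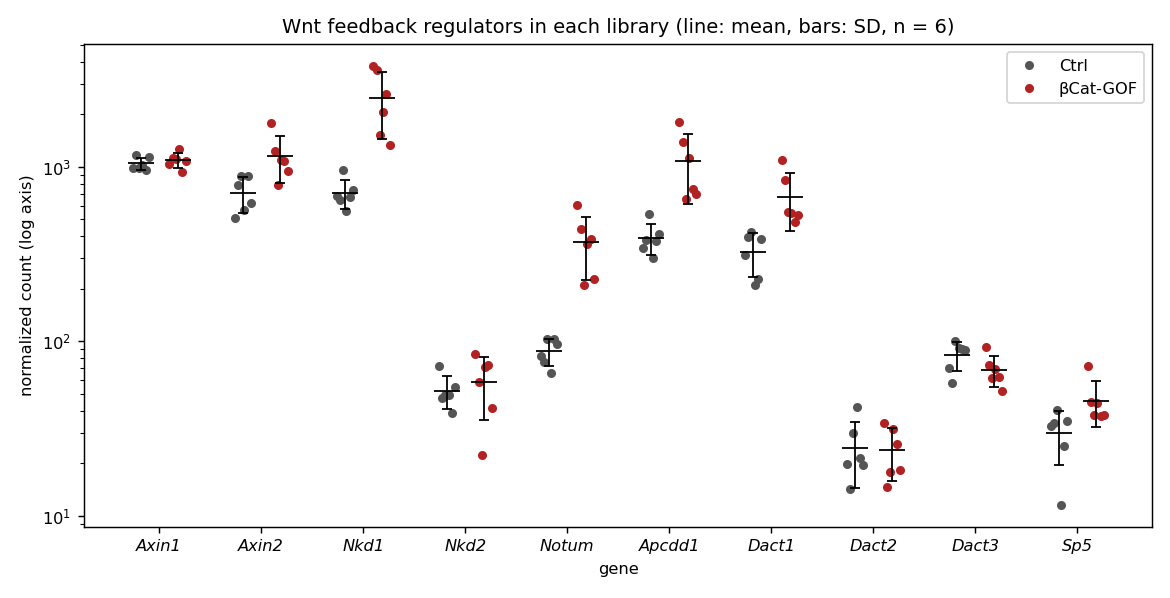
Normalized counts (log axis) of the 10 regulators in each library, with 6 Ctrl (grey) and 6 βCat-GOF (red) libraries per gene; black lines mark the mean and bars the SD. The groups are apart for Notum, Nkd1, Apcdd1 and Dact1, and overlap for the other 6 genes.

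At the level of the ligand, *Notum* had the largest change of the 10. The gene is on the minus strand of chromosome 11 (120653788 to 120661175 in GRCm38, GENCODE M21). Control libraries had between 66.2 and 103 normalized counts with a median of 89.4, and βCat-GOF libraries between 211 and 604 with a median of 373. The lowest βCat-GOF library, 1369-4, was well above the highest control, 1367-7, and the groups did not overlap. The means were 87.8 ± 15.4 and 371 ± 145 (SD, n = 6 each), which gave a log2 fold change of 2.08 with a standard error of 0.25 (adjusted p = 0.00066, edgeR's quasi-likelihood test). Exons of other genes on the opposite strand cover 38.1% of its exons, and whether the counting used the strand is not given in the sources used here. The antisense gene *Notumos*, which covers 29.4%, was itself listed at only 1.67 to 8.5 normalized counts.

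*Apcdd1*, the Wnt-binding inhibitor at the cell surface, is on the plus strand of chromosome 18 (62922231 to 62961179). There were between 302 and 537 normalized counts in controls (median 378) and between 656 and 1815 in βCat-GOF adrenals (median 933). The lowest βCat-GOF library, 1369-4, stood above the highest control, 1367-5-2, and the groups did not overlap. Means of 392 ± 80.3 and 1073 ± 465 (SD, n = 6 each) gave a log2 fold change of 1.45 with a standard error of 0.25 (adjusted p = 0.0062, edgeR's quasi-likelihood test).

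Among the Dishevelled-binding regulators, *Nkd1* and *Dact1* rose and their paralogs did not pass the test. *Nkd1* (chromosome 8 from 88521354 to 88594884, plus strand) had between 555 and 962 normalized counts in controls, with a median of 674, and between 1328 and 3785 in βCat-GOF adrenals, with a median of 2341. The 2 libraries with the stem 1369-2 held the highest values, 3785 and 3571, and the lowest βCat-GOF library (1369-3) was still above every control. The means were 708 ± 138 and 2483 ± 1032 (SD, n = 6 each), with a log2 fold change of 1.81 and a standard error of 0.25 (adjusted p = 0.0019, edgeR's quasi-likelihood test). *Nkd2* (chromosome 13 from 73818534 to 73847631, minus strand), which encodes the other Naked cuticle protein, had a control median of 49.4 (range 38.6 to 72.1) and a βCat-GOF median of 64.8 (range 22.4 to 85.0). Its βCat-GOF libraries spread on both sides of the controls, 2 above all of them and 1 below all. The log2 fold change was 0.17, and 2 standard errors on each side reached from -0.40 to 0.74 (adjusted p = 0.78, edgeR's quasi-likelihood test), an interval that lies below the *Nkd1* estimate.

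*Dact1* (chromosome 12 from 71309884 to 71320107, plus strand) had between 210 and 423 normalized counts in controls (median 349) and between 481 and 1101 in βCat-GOF adrenals (median 546). The groups did not overlap, but the gap was narrow and 4 of the 6 βCat-GOF libraries lay between 481 and 550. Means of 326 ± 90.8 and 674 ± 244 (SD, n = 6 each) gave a log2 fold change of 1.05 with a standard error of 0.24 (adjusted p = 0.029, edgeR's quasi-likelihood test). This was the weakest of the 4 calls. The adjusted p of *Dact1* was 0.059 without the control 1367-5, 0.063 without the control 1367-7, 0.055 without the βCat-GOF library 1369-2, 0.063 with libraries of a shared stem summed and 0.059 with library totals in place of TMM factors, and over the 12 fits that each left out 1 library its log2 fold change stayed between 0.85 and 1.15. An antisense gene, *4930474H06Rik*, covers 34.9% of the exons of *Dact1* and was at 0 to 2.32 normalized counts. *Dact2* (chromosome 17 from 14195052 to 14204304, minus strand) was the lowest of the family, with 14 to 44 raw counts per library. The mean was 24.5 ± 9.97 normalized counts in control libraries and 23.7 in βCat-GOF libraries, and the log2 fold change was -0.053 (interval -0.66 to 0.55, adjusted p = 0.94, edgeR's quasi-likelihood test). *Dact3* (chromosome 7 from 16875317 to 16887462, plus strand) had the lowest estimate of the 10, a log2 fold change of -0.28 (-0.66 to 0.099, adjusted p = 0.43, edgeR's quasi-likelihood test). Its control median was 90.1 and its βCat-GOF median 65.8, with overlapping groups.

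Neither scaffold of the destruction complex was called. *Axin1* (chromosome 17 from 26138688 to 26195811, plus strand) was the steadiest member, with between 964 and 1167 normalized counts in controls (median 1007) and between 934 and 1270 in βCat-GOF adrenals (median 1093). The groups covered nearly the same range. Its log2 fold change of 0.056 had an interval of 2 standard errors from -0.12 to 0.23 (adjusted p = 0.76, edgeR's quasi-likelihood test), which leaves out the fold of 1.4 used as a cut-off. *Axin2* (chromosome 11 from 108920349 to 108950783, plus strand) had between 511 and 891 normalized counts in controls (median 702) and between 787 and 1784 in βCat-GOF adrenals (median 1084). Only the library 1369-4, at 787, fell within the control range, and the other 5 lay above all controls. The means were 710 ± 168 and 1153 ± 343 (SD, n = 6 each), which gave a log2 fold change of 0.70 with a standard error of 0.20 that did not pass the test (adjusted p = 0.074, edgeR's quasi-likelihood test). *Axin2* did pass with DESeq2 (adjusted p = 0.014), with 1 surrogate variable in the fit (log2 fold change 1.03, adjusted p = 0.0001) and without the library 1369-4 (adjusted p = 0.045), and its adjusted p lay between 0.045 and 0.152 over the fits that left out 1 library. Without 1369-2ear and 1369-2 the log2 fold change of *Axin2* was 0.44 (adjusted p = 0.106, edgeR's quasi-likelihood test).

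*Sp5* (chromosome 2 from 70474923 to 70477729, plus strand), whose promoter letters are shown above, had between 11.6 and 40.4 normalized counts in controls (median 33.5) and between 37.5 and 71.9 in βCat-GOF adrenals (median 41.1). Of the βCat-GOF libraries, 3 lay above all controls and 3 within their range. The log2 fold change of 0.61 had a standard error of 0.28 (adjusted p = 0.24, edgeR's quasi-likelihood test), and raw counts were as low as 11 in controls.

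**Figure D2:**
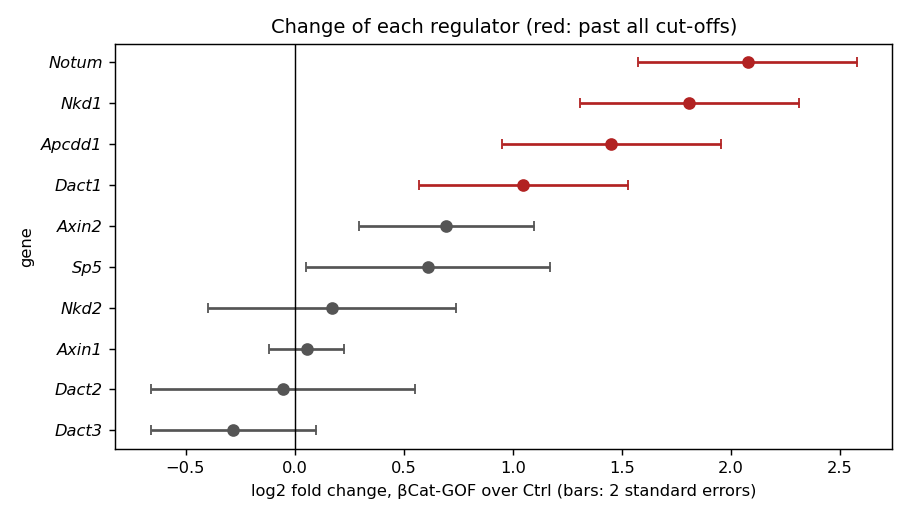
Log2 fold change of each regulator, βCat-GOF over Ctrl, from edgeR (x axis), with bars of 2 standard errors and genes past all cut-offs in red. Notum (2.08), Nkd1 (1.81), Apcdd1 (1.45) and Dact1 (1.05) are red, and Axin1 has the shortest bar.

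Because paralogs differed in whether they passed, the difference between them was tested directly as the log2 ratio of their normalized counts in each library (pseudocount 1, exact permutation test with 924 arrangements of the libraries, two-sided, Benjamini-Hochberg over 5 ratios, smallest possible p 0.0022). The ratio of *Nkd1* to *Nkd2* was 3.75 ± 0.38 in controls and 5.39 ± 0.50 in βCat-GOF adrenals, a rise of 1.65 with a standard error of 0.26 (exact permutation p = 0.0022, adjusted p = 0.0054). *Dact1* also gained on *Dact3*, from 1.93 ± 0.58 to 3.24 ± 0.27, a rise of 1.31 with a standard error of 0.26 (exact permutation p = 0.0022, adjusted p = 0.0054). In both ratios every βCat-GOF library lay above every control. The ratio of *Axin2* to *Axin1* went from -0.59 ± 0.38 to 0.036 ± 0.44, that is from less *Axin2* than *Axin1* to about equal counts, with a rise of 0.62 (standard error 0.24, exact permutation p = 0.030, adjusted p = 0.038). *Dact1* over *Dact2* rose by 1.05 (standard error 0.42, exact permutation p = 0.022, adjusted p = 0.036). These last 2 ratios rested on few libraries: the adjusted p was 0.12 for each without 1369-2ear and 1369-2, at differences of 0.42 and 0.76, and each failed in 8 of the 12 fits that left out 1 library. *Dact2* over *Dact3* moved by 0.25 (standard error 0.22), which did not pass (exact permutation p = 0.28).

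**Figure D3:**
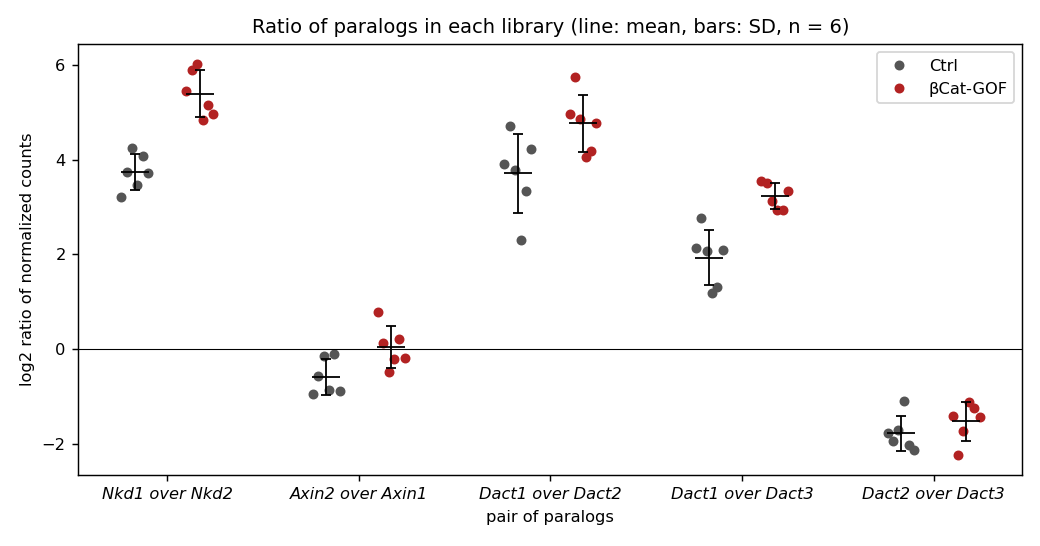
Log2 ratio of the normalized counts of paralogs (y axis) in each of the 6 Ctrl (grey) and 6 βCat-GOF (red) libraries, with mean and SD in black. Nkd1 over Nkd2 and Dact1 over Dact3 do not overlap between groups, and the other 3 ratios do.

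Per kilobase of exon, *Axin1* was the most abundant regulator in control adrenals, at 273 ± 22.3 normalized counts per kb (SD, n = 6), above *Nkd1* in all 6 libraries. *Nkd1* (155 ± 30.2) and *Axin2* (129 ± 30.5) followed and were not in the same order in every library, and *Dact1* (86.6 ± 24.1) came next. *Notum* (36.5 ± 6.38), *Apcdd1* (30.4 ± 6.23) and *Dact3* (27.8 ± 5.32) had overlapping ranges per kb, as did *Sp5* (14.2 ± 4.86), *Nkd2* (10.8 ± 2.32) and *Dact2* (7.23 ± 2.95). In βCat-GOF adrenals *Nkd1* stood first, at 545 ± 226 per kb against 285 ± 28.7 for *Axin1*, and it was above *Axin1* in 6 of 6 libraries although the ranges touched. *Axin2* (209 ± 62.3), *Dact1* (179 ± 65.0) and *Notum* (154 ± 60.4) per kb had overlapping ranges there, and *Apcdd1* (83.3 ± 36.1) lay above *Dact3* (22.9 ± 4.68) with a gap between their ranges. The exons of all annotated transcripts of a gene were merged for its length, and the long merged exons of *Apcdd1* (12884 bases) lower its value per kb.

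The βCat-GOF libraries differed among themselves in one order that many regulators shared. The library 1369-2ear was the highest of its group for 9 of the 10 genes (1369-8 was for *Axin1*), and 1369-2 was first or second for 8. How often 1369-2ear was the highest over all genes tested was not counted, so this order may not be particular to the regulators. At the low end 1369-4 was the lowest for 4 genes and 1387-8 for 3. Among controls 1367-5-2 was the highest for 5 genes and 1367-5, whose label shares its stem, the lowest for 5. Without 1369-2ear and 1369-2 the same 4 genes were called, against 2.90% of all genes tested in that fit, with log2 fold changes of 1.74 for *Notum*, 1.4 for *Nkd1*, 1.02 for *Apcdd1* and 0.68 for *Dact1* (adjusted p = 0.039 for *Dact1*, edgeR's quasi-likelihood test). The SD of log2 CPM (counts scaled to a common library total with TMM factors) was wider in βCat-GOF than in control adrenals by 2.36 times for *Notum*, 2.50 for *Nkd1*, 2.52 for *Nkd2* and 2.26 for *Apcdd1*, but 1.14 for *Dact1* and 0.62 for *Sp5*. A wider spread was not particular to these genes, since 8 of 10 regulators and 70.0% of all genes tested had one, with median ratios of 1.22 and 1.33. The count rested on 1369-2ear: it was 5 of 10 without that library (median ratio 1.10), and 5 of 10 (1.03) without it and 1369-2.

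Markers of cortical zones moved across the same libraries. Of 9 zG markers, 8 were higher on average with βCat-GOF and 4 were called (*Agtr1a*, *Agtr1b*, *Dab2* and *Vsnl1*), whereas *Cyp11b2*, the aldosterone synthase, was at 5162 ± 2063 and 4544 ± 2824 normalized counts (adjusted p = 0.82, edgeR's quasi-likelihood test). The summed zG markers reached 1345 to 2060 CPM in controls and 1843 to 3446 in βCat-GOF adrenals, with the highest sums in 1369-2ear (3446) and 1369-2 (3197). The summed markers of the zF, the next layer inward, were at 16110 to 19760 CPM in controls and 9962 to 28630 in βCat-GOF adrenals. There the order was the opposite, with the lowest sums in 1369-2ear (9962) and 1369-2 (13730), and 2 of 5 zF markers (*Akr1b7* and *Mrap*) were called higher. *Cyp11b1* had the most counts in these sums, 257100 normalized counts on average in controls. The mean log2 CPM of the zF markers, which weights each gene equally, was 0.47 higher in βCat-GOF adrenals. By that mean 1369-2ear (9.69) lay below the controls (10.1 to 10.47), whereas 1369-2 (10.49) lay above them. Summed markers of the capsule and stroma (366 to 717 CPM in controls, 290 to 608 in βCat-GOF), the medulla (3905 to 11960 and 4919 to 9582), endothelium (591 to 754 and 522 to 761), adipocytes (127 to 459 and 142 to 386) and the X-zone (249 to 5334 and 112 to 6183) overlapped between groups, and no gene of these lists was called. Macrophage markers were at 169 to 254 CPM in controls and 140 to 228 in βCat-GOF adrenals, with 2 of 6 called lower (*Adgre1* and *Itgax*).

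To set the regulators beside the zG markers, the mean log2 CPM of the 9 markers, which include *Wnt4*, was subtracted in each library, a step chosen after the data were seen. The marker mean was 0.63 higher in βCat-GOF adrenals, so that a gene with equal log2 CPM in both groups comes out at -0.63 on this scale by construction, and a positive value means a larger rise than that of the marker mean. Single markers had edgeR log2 fold changes from -0.18 (*Cyp11b2*) to 1.55 (*Agtr1b*), with a median of 0.89. The estimate of *Agtr1b* was above that of *Apcdd1* (1.45), so the values on this scale depend on the markers averaged. On this scale *Notum* was still higher in βCat-GOF adrenals by 1.34 (standard error 0.16) and *Nkd1* by 1.08 (0.16), with no overlap between groups (exact permutation p = 0.0022 for each, two-sided, unadjusted, 10 genes compared). *Apcdd1* was higher by 0.72 (standard error 0.21, exact permutation p = 0.011), with 5 of 6 βCat-GOF libraries above all controls. *Dact1* differed by 0.39 (standard error 0.24, exact permutation p = 0.14), *Axin2* by 0.044 (0.19, p = 0.83) and *Sp5* by -0.0095 (0.28, p = 0.98), so for these 3 any difference from the rise of the marker mean was within the spread between libraries. The other 4 members, none of them called, had log2 fold changes of -0.28 to 0.17. On this scale they came out at -0.57 (*Nkd2*), -0.58 (*Axin1*), -0.66 (*Dact2*) and -0.91 (*Dact3*). Because a gene without change stands at -0.63 here, a negative value on this scale does not show a fall of the gene itself. In the library 1369-4 the zG markers had a mean log2 CPM of 6.47, within the control range of 6.29 to 6.95, and *Notum* there was 1.24, *Nkd1* 1.10, *Dact1* 0.77 and *Apcdd1* 0.73 above the control mean on the log2 CPM scale. Single zG markers differed from that mean. *Agtr1a*, *Agtr1b*, *Dab2* and *Vsnl1* were above every control in every βCat-GOF library, 1369-4 included. The lowest βCat-GOF values of *Hsd3b6* (94.0 normalized counts) and *Cyp11b2* (2056) were below every control. Those of the remaining markers lay within the control range.

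**Figure D4:**
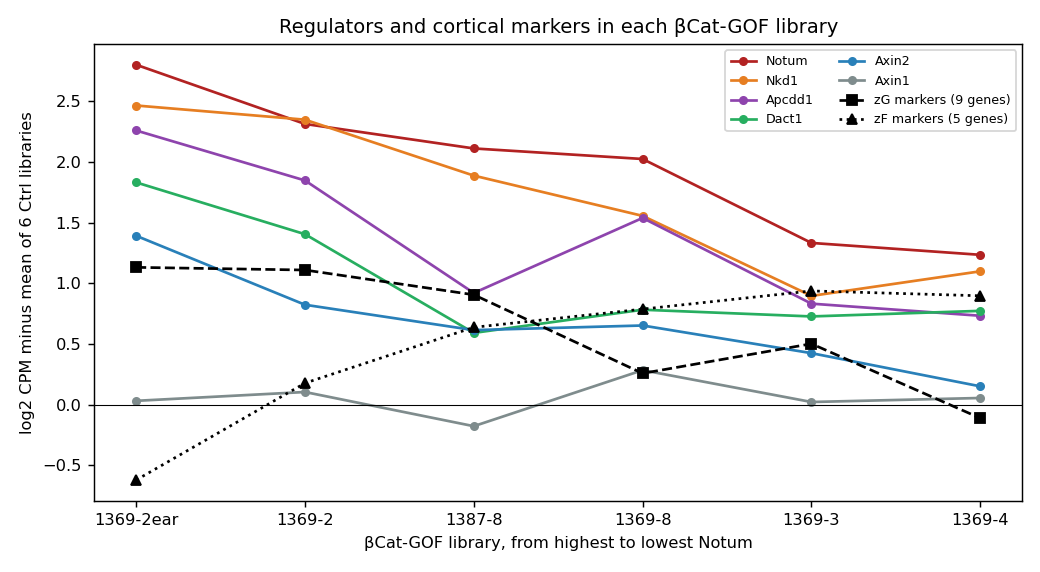
Log2 CPM of 6 regulators in each βCat-GOF library minus the mean of the 6 Ctrl libraries (y axis), with the mean of 9 zG markers (dashed) and of 5 zF markers (dotted); libraries run from highest to lowest Notum and lines only guide the eye. Notum, Nkd1, Apcdd1 and Dact1 are above 0 in all 6 libraries, also in 1369-4, where the mean of the zG markers is not.

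Most pairs of regulators were positively correlated within the 6 βCat-GOF libraries, and signs were mixed within the 6 controls. Over all 45 pairs, Pearson's r of log2 CPM had a median of 0.74 in βCat-GOF adrenals (range -0.075 to 0.955, 42 pairs positive) and 0.18 in controls (range -0.80 to 0.97, 24 pairs positive). High r values were common over all genes in βCat-GOF adrenals. The pair at the median there, *Nkd1* with *Nkd2*, exceeded 83.9% of the r values of *Nkd1* with all genes tested and 90.7% of those of *Nkd2*. The control median was 0.30 without 1367-5, and among the 15 pairs of members with a mean of at least 100 normalized counts the medians were 0.85 in βCat-GOF adrenals and 0.51 in controls. Without 1369-2ear and 1369-2 the βCat-GOF median was 0.66, with 38 pairs positive. The difference between these medians was not tested. For the 10 pairs among *Notum*, *Nkd1*, *Apcdd1*, *Axin2* and *Dact1* the medians were 0.874 and 0.684, and every pair was positive in both groups of 6. The part of *Dact1* in this rested on 1369-2ear and 1369-2. Over the 4 βCat-GOF libraries without them, *Dact1* had r = -0.50 with *Notum*, -0.62 with *Nkd1* and -0.40 with *Axin2*. Its r with *Apcdd1* was 0.30, and the pairs without *Dact1* stayed positive. With 6 libraries the smallest p that the 720 pairings allow is 0.0014, and none of the 90 pairs passed an adjusted p under 0.05 (exact permutation, Benjamini-Hochberg over 90). Unadjusted, 18 pairs in βCat-GOF adrenals and 3 in controls had p under 0.05.

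*Notum* and *Nkd1* had the highest r in βCat-GOF adrenals, 0.955 (rho 0.943, exact permutation p = 0.0069 for r and 0.017 for rho, adjusted p = 0.069 and 0.125). It was 0.862 without the 2 libraries farthest from the median of *Notum* (1369-4 and 1369-3) and 0.936 without 1369-2ear and 1369-2, and it exceeded 99.1% of the r values of *Notum* with all genes tested. *Notum* with *Axin2* gave r = 0.946 (rho 0.943, exact permutation p = 0.0028 and 0.017, adjusted p = 0.05 and 0.125), with 0.986 without the same 2 farthest and 0.902 without 1369-2ear and 1369-2. *Apcdd1* and *Axin2* ranked the 6 libraries in the same order (rho 1.0, r = 0.919, exact permutation p = 0.0028 and 0.0014, adjusted p = 0.125 and 0.05), with r = 0.720 without the 2 farthest, which were 1369-2ear and 1369-2. Some other high values rested on the libraries with the stem 1369-2. *Apcdd1* with *Dact1* fell from r = 0.902 to 0.297 without 1369-2ear and 1369-2, and *Dact1* with *Sp5* from 0.907 to 0.473. *Axin1*, the broadly expressed scaffold, had r values near 0 with *Notum* (-0.0045), *Nkd1* (-0.075) and *Axin2* (0.025) in βCat-GOF adrenals.

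In controls the closest pair was *Nkd1* with *Apcdd1* (r = 0.970, rho 0.829, exact permutation p = 0.0069 and 0.058, adjusted p = 0.069 and 0.219), but it rested partly on 1367-5-2 and 1367-5, without which r was 0.603. *Dact1* with *Sp5* (r = 0.864, rho 0.943, exact permutation p = 0.0028 and 0.017, adjusted p = 0.05 and 0.125) had r = 0.792 without its 2 farthest libraries. *Nkd2* ran against *Axin2* there (r = -0.796, rho -0.886, exact permutation p = 0.026 and 0.033, adjusted p = 0.119 and 0.176), whereas the same pair had r = 0.824 in βCat-GOF adrenals. Points of such a correlation share libraries with their depth and cell makeup, and the part of the zG and zF markers in them was not tested.

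**Figure D5:**
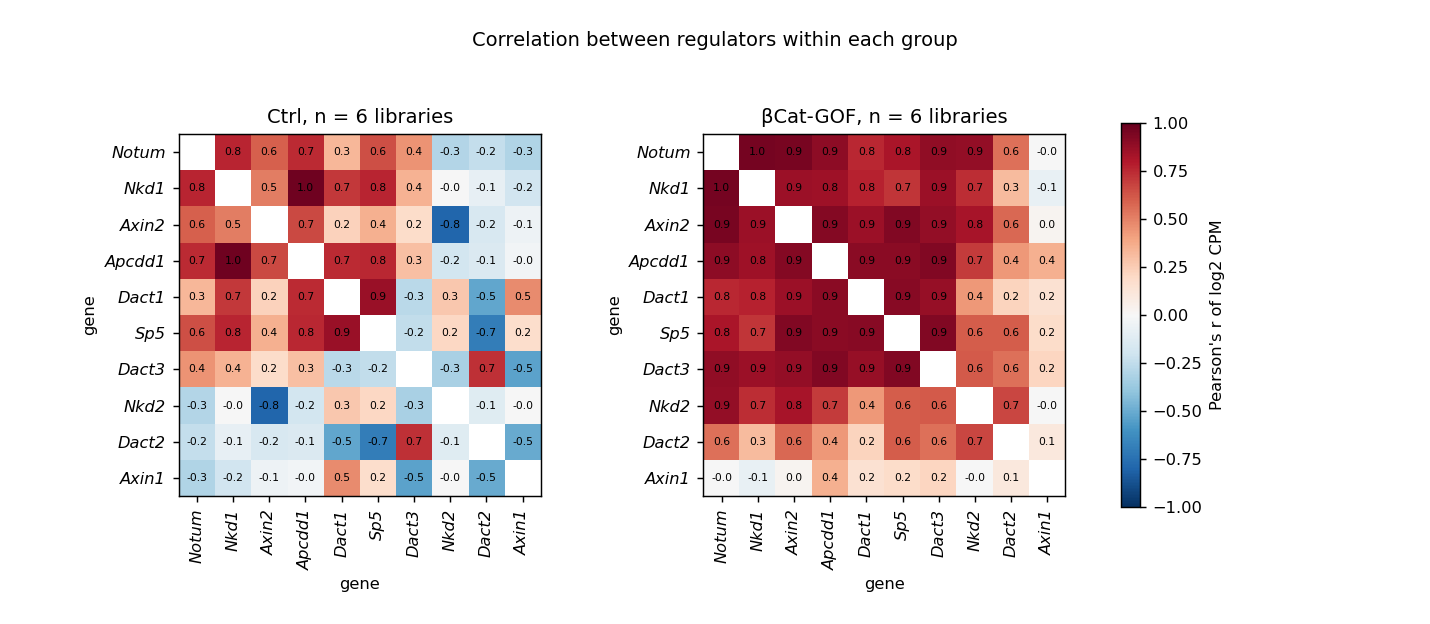
Pearson's r of log2 CPM for each pair of regulators within the 6 Ctrl (left) and the 6 βCat-GOF (right) libraries, from blue (-1) to red (1). Most pairs are red in βCat-GOF adrenals except those with Axin1, and signs are mixed in controls.

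Over the 12 libraries, after each group's mean was subtracted, the 3 genes whose log2 CPM was most like that of *Notum* were *Igsf3* (r = 0.937), *Myh10* (0.929) and *Uaca* (0.927), with *Nkd1* next (0.926). *Nkd1* was most like *Daam2* (0.953), *Sept4* (0.948, listed in the deposited table under a name turned into a date) and *Galnt18* (0.946). *Apcdd1* was most like *Fut10* (0.965), *Dlg3* (0.951) and *Src* (0.943), and *Axin2* was most like *Abr* (0.937), *Zfhx3* (0.916) and *Rnft2* (0.915). These are descriptions over 12 libraries and carry no test.

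Most other genes of the pathway were not called. Of 93 listed genes in 7 groups, 73 were tested and 3 were called higher (4.11%, against 1.48% of all genes). Called lower were 2 of the 73, against 0.869% of all genes. The median log2 fold change of the 73 was 0.033. *Tcf7*, a nuclear partner of β-catenin and itself a target, averaged 676 ± 51.5 normalized counts in control and 972 ± 126 in βCat-GOF libraries, with no overlap (log2 fold change 0.52, standard error 0.097, adjusted p = 0.010, edgeR's quasi-likelihood test). *Lef1*, its relative, had 183 ± 60.5 and 345 ± 133 and did not pass (0.90, standard error 0.27, adjusted p = 0.085). It was called with DESeq2, with 1 surrogate variable in the fit and without the control 1367-1. *Rnf43*, a ubiquitin ligase that removes Frizzled receptors and thus another negative feedback gene, had 162 ± 29.3 and 272 ± 39.9 normalized counts (0.74, adjusted p = 0.013). *Ror2*, a receptor for non-canonical Wnt ligands, had 128 ± 17.5 and 282 ± 104 (1.14, adjusted p = 0.012). The genes called lower were *Frzb*, a secreted Wnt antagonist, from 7774 ± 748 to 3945 ± 758 (log2 fold change -0.99, adjusted p = 0.00066), and *Ctnnbip1*, which blocks the binding of β-catenin to TCF, from 902 ± 147 to 624 ± 97.6 (-0.54, adjusted p = 0.039). *Frzb* was called in every fit. *Ctnnbip1* was not called with 1 surrogate variable, with libraries of a shared stem summed, or in most fits that left out 1 library. Which genes were called lower depended on the fit: DESeq2 added *Lgr5*, the R-spondin receptor (log2 fold change -0.86), *Ror1* (-0.63) and *Apc2* (-0.997), and the fit without 1369-2ear and 1369-2 added *Lgr5* (-1.18), *Ror1* (-0.87), *Apc2* (-1.47) and *Pygo1* (-0.57), a nuclear coactivator of β-catenin. DESeq2 also added *Lef1*, *Ccnd1*, *Cd44*, *Fzd5* and *Wnt4*, whose log2 fold changes by edgeR were positive (0.56 to 1.10). The fit without 1369-2ear and 1369-2 also added *Cd44*, and it did not call *Tcf7*. By group, 0 of 9 ligands, 1 of 15 receptors, 1 of 6 R-spondin and receptor-turnover genes, 1 of 8 secreted antagonists, 0 of 14 genes of β-catenin and its destruction complex, 2 of 14 nuclear factors and 2 of 12 other targets were called, where *Tcf7* and *Rnf43* each stand in 2 groups.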

How the data were processed

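The authors trimmed adapters with cutadapt, aligned reads to mm10 with STAR, used featureCounts 1.4.4 to count the reads that map uniquely, and deposited the counts of 39017 genes. The deposited signal, counts divided by a factor per library, served only as a check and for gene symbols. Columns not mapped to a sample numbered 0. Counts were tested with edgeR 4.0.16 (TMM, filterByExpr, quasi-likelihood) in R 4.3.3, against DESeq2 1.42.0, limma 3.58.1 and sva 3.50.0 in alternatives. The standard error is the log2 fold change divided by the square root of F. Normalized counts are counts over DESeq2 size factors of the 12 libraries, and log2 CPM used a prior count of 2. The steps were tested on simulated data. A blastn search (95% identity over 10% of the longest transcript) found no copy of a member other than its antisense genes. Nothing states that libraries came from separate litters or batches, so p-values measure the spread between these libraries. Members, lists and the rule for named genes (all members, called pathway genes, *Ctnnb1*, *Tcf7*, *Lef1* and the 3 genes most like *Notum*, *Nkd1*, *Apcdd1* and *Axin2*) were chosen with earlier results of these data known.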

Additional observations from a re-analysis of the deposited data

Results flagged for a closer look

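*Sp5* in the βCat-GOF library 1369-2ear, at 71.9 normalized counts, stood apart from the other 5 libraries of its group, of which the next was 44.8. The gap was 0.785 of the group's range, above the critical value of Dixon's test for 6 samples. It was the only one among the 20 groups of 6 values checked (10 genes in 2 groups), and chance alone flags about 1 in 20 such groups. The same library was the highest of its group for 9 of the 10 regulators. Without it and 1369-2, *Sp5* was not called either.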

How the results depend on the processing

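The 4 calls among the regulators became 2 (*Notum* and *Nkd1*) in a test against a fold of 1.4 and 3 to 5 when 1 library was left out. The other Wnt pathway genes called, 5 here, numbered 13 with DESeq2, 10 with 1 surrogate variable, 9 without the libraries 1369-2ear and 1369-2, 2 with libraries of a shared stem summed, 1 in the test against a fold of 1.4, and 3 to 7 when 1 library was left out (3 without the control 1367-5). Calls over all genes moved as well, from 222 higher and 130 lower here to 361 and 280 with DESeq2. They were 319 and 111 with 1 surrogate variable, and 440 and 470 without 1369-2ear and 1369-2. With libraries of a shared stem summed they were 175 and 99, and in the test against a fold of 1.4 they were 40 and 10. The log2 ratio of *Axin2* to *Axin1* changed by 0.52 with libraries of a shared stem averaged, 0.42 without 1369-2ear and 1369-2, and 0.48 to 0.73 when 1 library was left out, and that of *Dact1* to *Dact2* by 0.92, 0.76 and 0.77 to 1.25, with an adjusted p of 0.099 for each with stems averaged. The cause was not tested. *Nkd2* turned to -0.022 without 1369-2ear and 1369-2. *Dact2* turned to 0.11 with 1 surrogate variable, 0.006 with stems summed, and lay between -0.20 and 0.17 when 1 library was left out. On the scale relative to the zG markers *Nkd2* (-0.57), *Axin1* (-0.58) and *Sp5* (-0.0095) had a negative sign by construction, as has any gene that rose by less than the 0.63 of the marker mean. The median r was 0.51 in controls and 0.85 in βCat-GOF adrenals among members with a mean of at least 100 normalized counts. No paired analysis was possible because the labels give the groups no shared replicate numbers. *Nkd2*, *Dact2*, *Dact3* and *Sp5* had few counts, which limits their precision, and intervals do not exclude changes of moderate size.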
